A study of Homo sapiens with 12 samples.

Results

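The 33 genes described here are the transcription factor NRF2 (gene NFE2L2), its inhibitor KEAP1, and enzymes of glutathione, thioredoxin, NADPH, quinone and aldehyde metabolism together with the superoxide dismutases and catalase. They were taken by symbol from a table of 26506 genes, and 29 of the 33 held enough reads to be among the 14230 genes tested. The remaining members, GPX2, AKR1B10, AKR1C1 and AKR1C2, were too low to test. RNA was sequenced from HK-2 cells, which derive from the proximal tubule of a human kidney and were made to grow without limit. The samples fall into 4 hairpin groups of 3 samples each. Luc976 carries a hairpin whose name points to luciferase and serves as the control, shVHL61 carries 1 hairpin against VHL, shKIM1-A1 carries 1 against KIM-1, the product of HAVCR1, and the shVHL61-KIM1A1 line has the pair. No treatment is named for any group, and each target was met by a single hairpin sequence, so knockdown of the target and any other action of that hairpin cannot be told apart. Whether a line is 1 clone, and whether its 3 samples were grown apart, is not stated in the labels, so p-values reflect sample-to-sample spread that may be technical only.

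KEAP1 is the substrate adaptor of a ubiquitin ligase that keeps NRF2 short-lived. Oxidants and electrophiles modify cysteines of KEAP1, NRF2 then builds up, pairs with a small MAF protein and binds antioxidant response elements (ARE) near genes for glutathione synthesis, thioredoxin recycling, NADPH supply and detoxification. NRF2 activity is therefore set largely at the level of the protein, and the mRNA of NFE2L2 is not a measure of it. Proximal tubule cells hold many mitochondria and take up reactive compounds from the filtrate. VHL is the recognition subunit of the ubiquitin ligase for hypoxia-inducible factors, and KIM-1 is a membrane receptor that appears on injured tubule cells.

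Depth ranged from 16500965 to 21089716 counts per sample. VHL was at 52.8 to 53.5 counts per 1e+06 (CPM) in Luc976, 57.4 to 61.0 in shKIM1-A1, 37.3 to 39.3 in shVHL61 and 38.2 to 43.3 in shVHL61-KIM1A1. HAVCR1 was at 113 to 133 CPM in Luc976, 52.0 to 60.6 in shKIM1-A1, 132 to 152 in shVHL61 and 71.3 to 99.0 in shVHL61-KIM1A1. Each hairpin's target was thus lower in the lines that carry it. HAVCR1 stood higher in shVHL61-KIM1A1 than in shKIM1-A1 (log2 difference 0.55 ± 0.10 SE, edgeR adjusted p = 0.000476). This compares levels and does not test how far the KIM-1 hairpin lowered HAVCR1 in each background. Of 16 tubule epithelial markers, 10 reached a mean of 1 transcript per 1e+06 (TPM), among them PAX8, KRT8 and KRT18, and their summed level was 2362 to 2855 TPM. The transport markers of the differentiated proximal tubule were absent or nearly so: LRP2 was at 0, and CUBN, AQP1 and SLC34A1 were below 1 TPM in each group. The 16 fibroblast, endothelial and immune markers summed to 243 to 252 TPM in Luc976, 265 to 295 in shKIM1-A1, 265 to 283 in shVHL61 and 299 to 323 in shVHL61-KIM1A1, with KDR, CD3E and MS4A1 at 0. LUM and CD68 carried this sum, while of the 7 tested markers 0 were higher and 4 lower in shKIM1-A1 (median log2 change -0.637), 1 and 3 with shVHL61 (-0.323) and 3 and 3 with the pair (0.199). Of 12 tested epithelial markers, 4 were higher and 3 lower in shKIM1-A1, 3 and 3 with shVHL61 and 3 and 5 with the pair. Of all tested genes, 14.8% were higher and 16.6% lower in shKIM1-A1, 7.21% and 9.44% with shVHL61, and 25.2% and 26.3% with the pair. The fibroblast markers did not move alike: DCN had a mean of 2.96 TPM in Luc976 and 0.0433 with the pair. LUM went the other way, with 1575 to 2152 counts per sample in Luc976 and 2334 to 2711 with the pair. The part of these markers in the results was not tested. In bulk RNA, fewer cells of one kind and less RNA per cell cannot be told apart.

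A promoter window, from 250 bases before to 50 after the gene start, was found for 26 of the 33 members in a RefSeq table (GRCh38.p14). The ARE core, spelled TGACNNNGC on either strand, occurred in 6 of these 26 windows (23.1%) and in 3702 of 27305 windows of all genes in the table (13.6%). The core of the hypoxia response element, ACGTG on either strand, occurred in 5 of 26 (19.2%) and in 5900 of 27305 (21.6%). The 6 members with an ARE core were GCLM, TXNRD1, GPX2, PGD, ME1 and GSTP1. One upstream match of each is shown with 16 bases on each side and the matched core in capitals because their values are given below: GCLM, TXNRD1, PGD and ME1 were called in different directions, GSTP1 was not called, and GPX2 was too low to test. Those of ME1 and GSTP1 also hold TGANTCA, the AP-1 motif, within the same letters.
GCLM (GRCh38.p14, chr1:93909440-93909480, plus strand): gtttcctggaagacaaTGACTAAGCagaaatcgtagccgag
TXNRD1 (GRCh38.p14, chr12:104215664-104215704, plus strand): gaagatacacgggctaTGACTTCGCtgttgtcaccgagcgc
GPX2 (GRCh38.p14, chr14:64942843-64942883, plus strand): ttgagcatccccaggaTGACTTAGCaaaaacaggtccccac
PGD (GRCh38.p14, chr1:10398847-10398887, minus strand): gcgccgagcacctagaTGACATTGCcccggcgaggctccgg
ME1 (GRCh38.p14, chr6:83431164-83431204, minus strand): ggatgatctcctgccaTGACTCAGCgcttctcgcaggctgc
GSTP1 (GRCh38.p14, chr11:67583730-67583770, plus strand): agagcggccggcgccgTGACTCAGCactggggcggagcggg
A further match lay across the start of TXNRD1 and another just past the start of ME1. NQO1, SOD2, NFE2L2 and KEAP1 had no match in this window. These are matches of letters in a short window and do not show binding.

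Per unit of transcript length, the members of Luc976 cells spanned from 2772 ± 146 TPM (mean ± SD, n = 3) for the peroxiredoxin PRDX1 to a listed value of 0 for the glutathione peroxidase GPX2. AKR1B1, the aldose reductase that turns glucose into sorbitol, came second in TPM with 2088 ± 57.3. The transferase GSTP1 (900 ± 99.3 TPM), the transketolase TKT (834 ± 73.7), thioredoxin TXN (759 ± 45.4) and GPX1 (725 ± 57.5) followed, and neighbours in this stretch differed by less than the sum of their SDs. In the middle of the order stood SOD2 at 116 ± 7.54 TPM, KEAP1 at 76.2 ± 4.25 and NFE2L2 at 63.9 ± 5.33, with NQO1 above them at 159 ± 4.44. The rate-limiting pair of glutathione synthesis was near the lower end, GCLM at 22.2 ± 1.39 TPM and its catalytic partner GCLC at 15 ± 0.349. The untested members held 0 to 3 reads per library for GPX2, 0 to 2 for AKR1C2, 0 to 11 for AKR1B10 and 1 to 9 for AKR1C1. AKR1C1 and AKR1C2 are near-identical in sequence and AKR1C3 is a less similar relative, so the split of reads among them is uncertain, most so between AKR1C1 and AKR1C2.

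**Figure D1:**
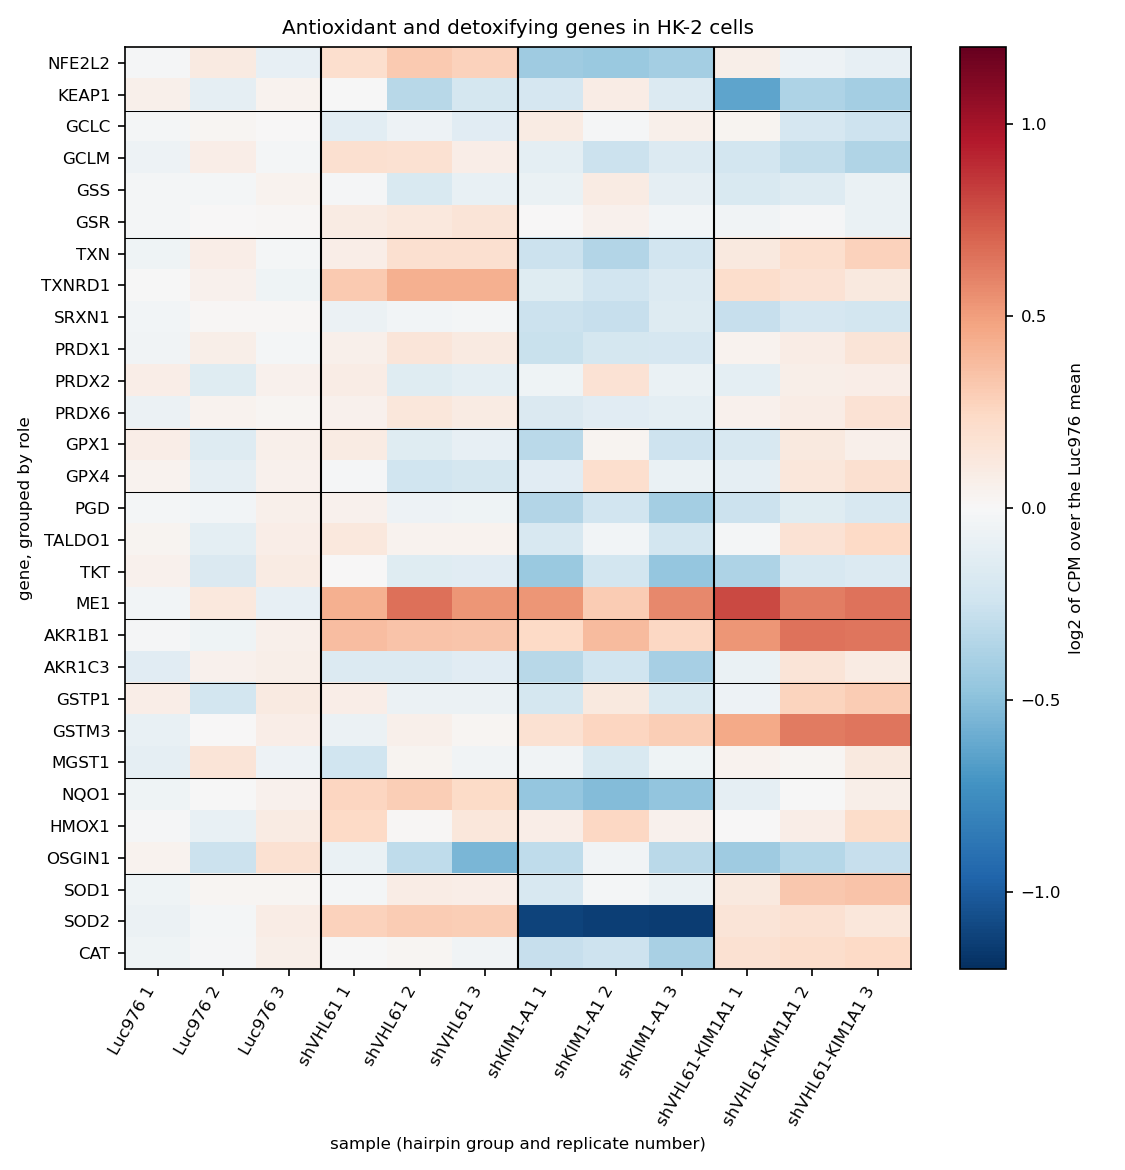
The colour gives log2 of CPM over the Luc976 mean for the 29 tested members (vertical axis, grouped by role, thin lines between roles) in the 12 samples (horizontal axis, thick lines between groups). SOD2 is dark blue in the 3 shKIM1-A1 samples, while ME1 and AKR1B1 are red in the 9 samples with a VHL or KIM-1 hairpin.

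The lines differed from each other in which members moved. Of the 29 tested members, 21 passed the edgeR test in at least 1 of 6 comparisons, and 8 passed it in none: GCLC, GSS, PRDX2, GPX1, GPX4, GSTP1, MGST1 and the heme oxygenase HMOX1. Each of these 8 passed in some comparison under at least 1 alternative processing. The share of all tested genes that passed in at least 1 comparison was not computed. In shVHL61-KIM1A1 against Luc976 alone, 7319 of the 14230 tested genes passed, so the count of 21 does not set the members apart. Against Luc976, 6 members were higher and 0 lower in shVHL61, where 7.21% of all tested genes were higher and 9.44% lower. In shKIM1-A1, 3 members were higher and 13 lower, with 14.8% and 16.6% of all genes. In shVHL61-KIM1A1, 8 were higher and 6 lower, with 25.2% and 26.3% of all genes, so its members' shares of 27.6% and 20.7% are close to the background. The members' median log2 change was 0.005 with shVHL61, -0.143 with shKIM1-A1 and 0.064 with the pair, beside all-gene medians of -0.01, 0.006 and 0.006. On TPM the splits were 5 and 0, 4 and 9, and 4 and 8, while the share of all called genes that were higher moved from 43.3% to 28.0%, from 47.2% to 68.7% and from 48.9% to 36.7%. The all-gene medians on log2(TPM + 1) were -0.027, 0.087 and -0.062 in the same order. The 3 comparisons share the Luc976 samples. Most changes were small: of the 21 members called somewhere, 6 reached a log2 change of 0.5 in size, namely ME1, AKR1B1, AKR1C3, GSTM3, SOD2 and CAT. The share of all genes that reached this size was not computed.

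**Figure D2:**
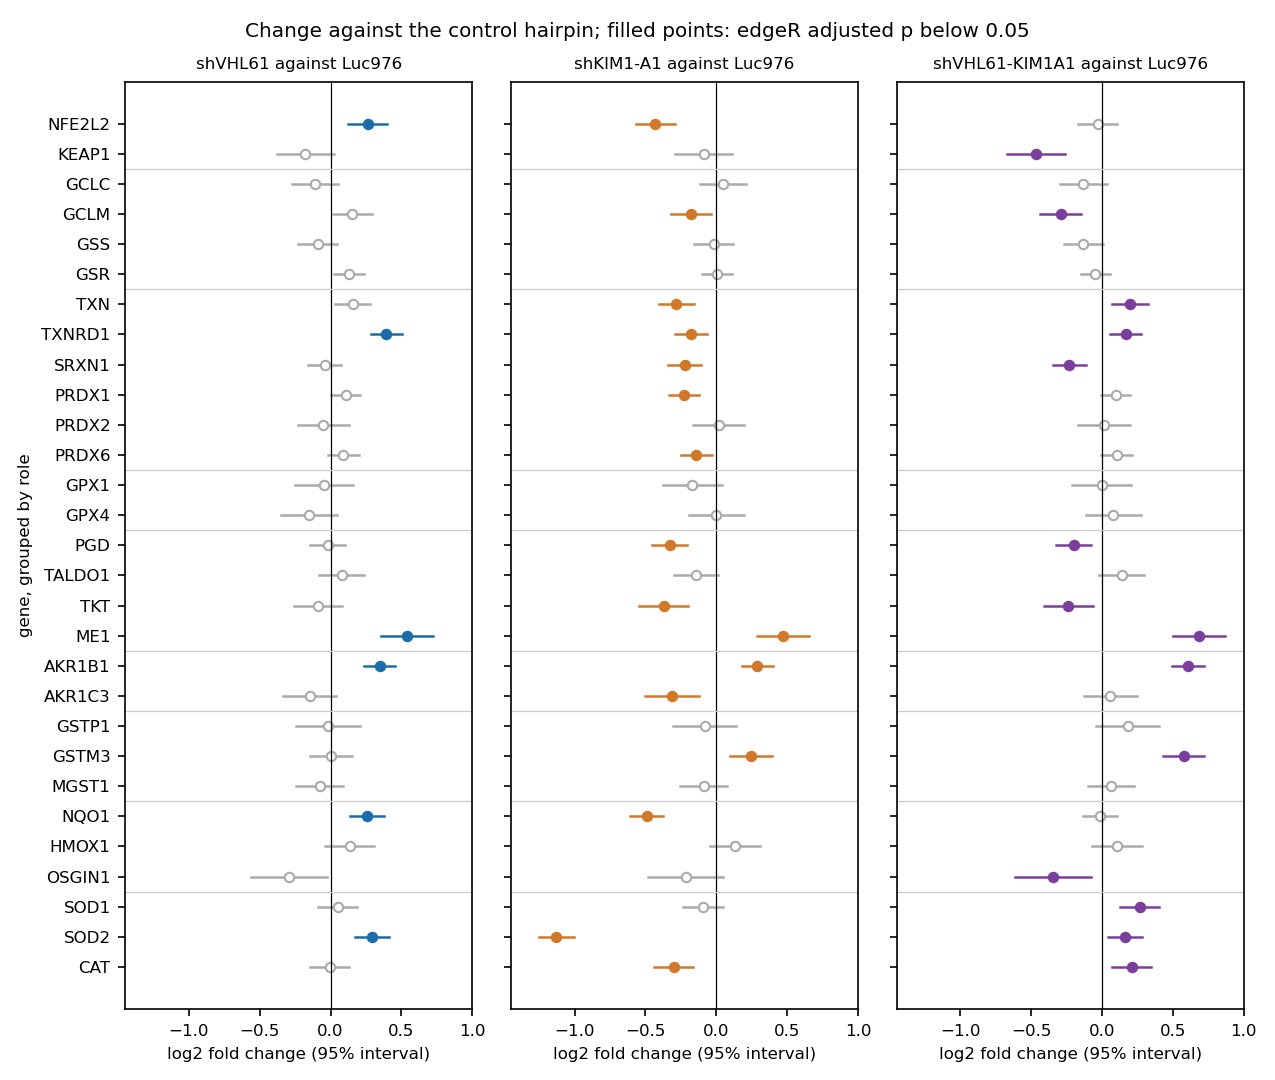
Points give the log2 fold change against Luc976 (horizontal axis) for each tested member (vertical axis), with lines for 95% intervals, in shVHL61, shKIM1-A1 and shVHL61-KIM1A1; filled points passed an edgeR adjusted p below 0.05. Filled points lie at positive values in shVHL61 (6 of 6), mostly at negative values in shKIM1-A1 (13 of 16) and on each side in the line with the pair.

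NFE2L2 mRNA was moderately higher in shVHL61 and lower in shKIM1-A1. Its level was 91.4, 99.5 and 86.5 CPM in Luc976, 68.6, 67.9 and 69.5 in shKIM1-A1, 106, 115 and 112 in shVHL61, and 97.0, 88.6 and 86.4 in shVHL61-KIM1A1. The shVHL61 samples lay above and the shKIM1-A1 samples below those of every other group, and Luc976 and shVHL61-KIM1A1 overlapped. Against Luc976 the log2 change was 0.26 ± 0.06 (SE) in shVHL61 (edgeR adjusted p = 0.011), -0.43 ± 0.07 in shKIM1-A1 (edgeR adjusted p = 0.000137) and -0.03 ± 0.07 in shVHL61-KIM1A1 (edgeR adjusted p = 0.734). The call in shVHL61 was lost without Luc976 replicate 3 (0.22, edgeR adjusted p = 0.0699) and without shVHL61 replicate 2 (0.23, 0.0599), and by limma on log2(TPM + 1) (0.23, 0.0614). With the KIM-1 hairpin added to shVHL61, NFE2L2 fell by 0.29 on the log2 scale (SE 0.06, edgeR adjusted p = 0.00189), against its fall of 0.43 without shVHL61, and these effects did not differ past the threshold (interaction 0.14, 95% interval -0.06 to 0.33, edgeR adjusted p = 0.32). With a term for 2 library sets described below the NFE2L2 interaction was called (0.21, edgeR adjusted p = 0.0122). Within the sets it was 0.11 in A and 0.30 in B, where some groups have 1 library.

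KEAP1 mRNA was lower where the pair of hairpins was present. Its level was 103, 91.8 and 102 CPM in Luc976, 85.9, 105 and 88.1 in shKIM1-A1, 98.7, 78.4 and 85.2 in shVHL61, and 63.8, 76.6 and 74.5 in shVHL61-KIM1A1. Every shVHL61-KIM1A1 sample lay below every sample of the other groups, which overlapped one another. The log2 change in shVHL61-KIM1A1 was -0.47 ± 0.10 against Luc976 (edgeR adjusted p = 0.000777), -0.38 ± 0.10 against shKIM1-A1 (edgeR adjusted p = 0.005) and -0.29 ± 0.10 against shVHL61 (edgeR adjusted p = 0.0246). The last was not called without shVHL61 replicate 1 (-0.19, edgeR adjusted p = 0.137) or without shVHL61-KIM1A1 replicate 1 (-0.21, 0.109). Neither single hairpin gave a call, with -0.18 in shVHL61 (95% interval -0.38 to 0.02) and -0.09 in shKIM1-A1 (-0.29 to 0.11), and the interaction was -0.20 (95% interval -0.49 to 0.09, edgeR adjusted p = 0.335). That KEAP1 interaction was called with the set as a term (-0.35, edgeR adjusted p = 0.000176) and with trends in transcript length and GC content removed (-0.26, 0.00567). It was also called by limma on log2(TPM + 1) (-0.34, adjusted p = 0.0487), where the median interaction of all genes was -0.13.

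NQO1, the quinone reductase widely used as a readout of NRF2, followed the order of NFE2L2. It stood at 199, 205 and 214 CPM in Luc976, 149, 144 and 148 in shKIM1-A1, 246, 253 and 241 in shVHL61, and 191, 205 and 216 in shVHL61-KIM1A1. Again the shVHL61 samples were highest and the shKIM1-A1 samples lowest with no overlap, and shVHL61-KIM1A1 overlapped Luc976. NQO1 rose by a log2 of 0.26 ± 0.06 in shVHL61 (edgeR adjusted p = 0.00458) and fell by 0.49 in shKIM1-A1 (SE 0.06, edgeR adjusted p = 8.35e-06), and was at -0.01 ± 0.06 in shVHL61-KIM1A1 (edgeR adjusted p = 0.856). The interaction was 0.22 ± 0.08 and missed the threshold (edgeR adjusted p = 0.0596), which it passed with the set as a term (0.20, 0.0167), with trends removed (0.20, 0.027) and without shVHL61-KIM1A1 replicate 1 (0.27, 0.0184). The other members of this group did not move alike: HMOX1, which breaks down heme, gave no call and lay between 41.1 and 45.0 CPM in group means, and OSGIN1, an oxidative stress-induced growth inhibitor, was lower in shVHL61-KIM1A1 (-0.35 ± 0.13, edgeR adjusted p = 0.0328), a call lost without any of 4 of the 6 libraries compared (adjusted p from 0.0667 to 0.153).

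**Figure D3:**
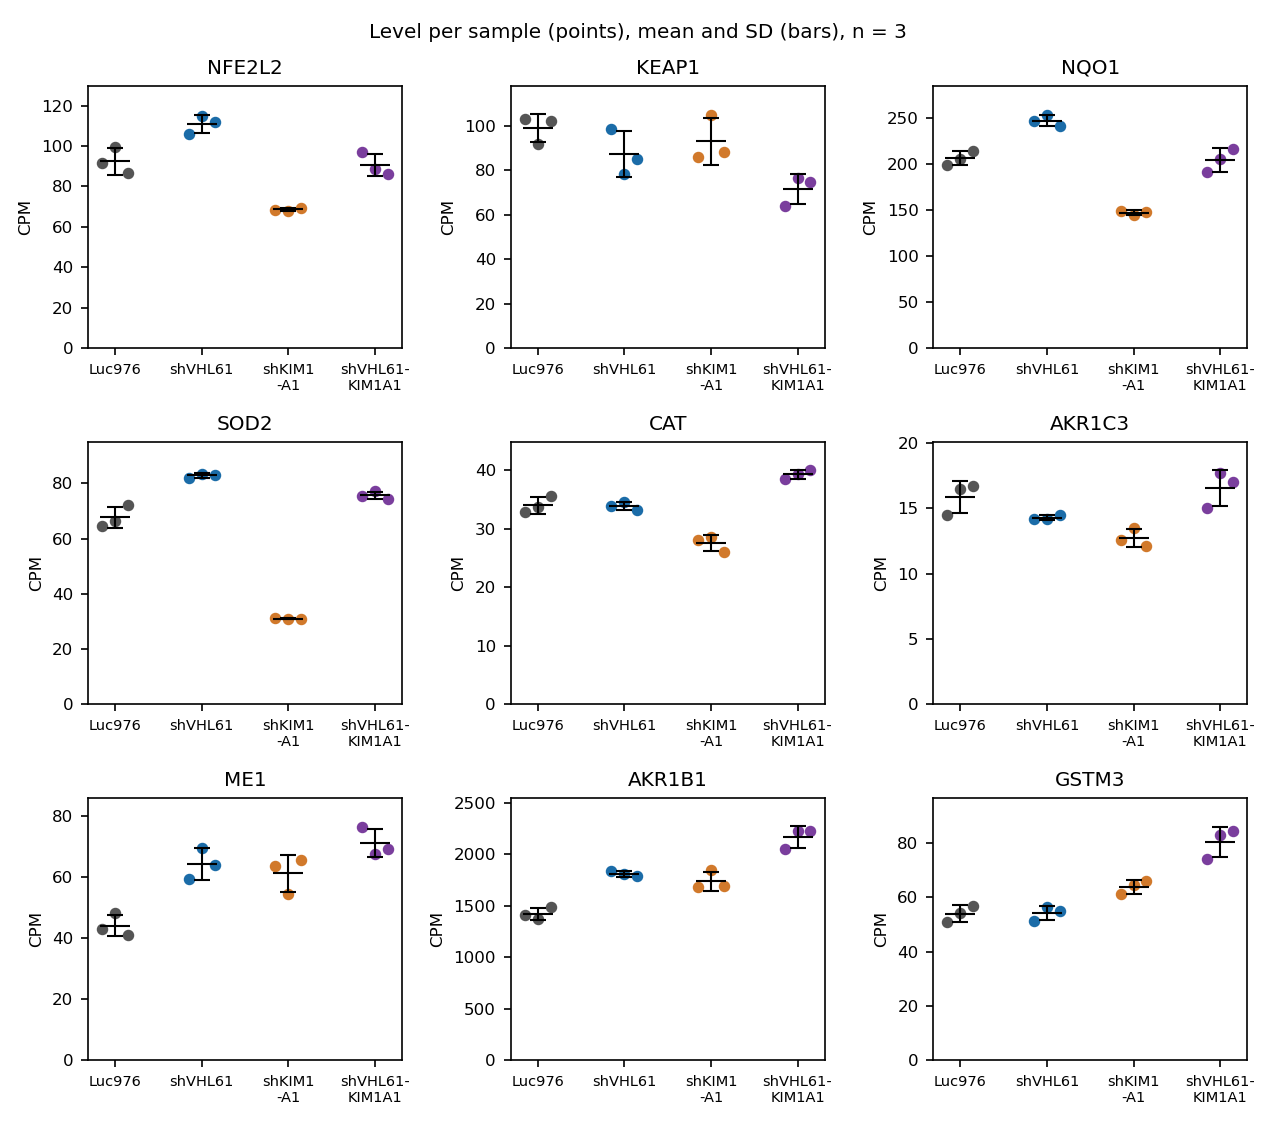
Each panel gives the level in CPM (vertical axis, from 0) of 1 gene in the 4 groups (horizontal axis), with a point per sample and bars for mean and SD over n = 3. NFE2L2 and NQO1 are highest in shVHL61 and lowest in shKIM1-A1, SOD2 drops to 30.7 to 31.3 CPM in shKIM1-A1, and AKR1B1 is highest in shVHL61-KIM1A1 at 2047 to 2227 CPM.

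Of the superoxide and peroxide enzymes, SOD2 changed most of all members. SOD2 is the manganese superoxide dismutase of mitochondria. It was at 64.7, 66.5 and 72.0 CPM in Luc976, 31.3, 30.9 and 30.7 in shKIM1-A1, 81.9, 83.5 and 83.2 in shVHL61, and 75.4, 77.1 and 74.5 in shVHL61-KIM1A1. The 4 groups did not overlap, and their samples differed by little within a group. In shKIM1-A1 the level was 0.457 times that of Luc976, a log2 change of -1.13 ± 0.06 (edgeR adjusted p = 2.05e-09), and in shVHL61 it rose by 0.29 ± 0.06 (edgeR adjusted p = 0.0021). The rise of 0.16 ± 0.06 in shVHL61-KIM1A1 (edgeR adjusted p = 0.0266) was not called without Luc976 replicate 1 (0.14, 0.0931) or without shVHL61-KIM1A1 replicate 2 (0.15, 0.0862), nor by limma on log2(TPM + 1) (0.07, 0.281), and was 0.44 with trends in length and GC content removed. The line with the pair exceeded shKIM1-A1 by 1.29 ± 0.06 (edgeR adjusted p = 1.18e-10), and did not differ past the threshold from shVHL61 (-0.13, 95% interval -0.25 to -0.01, edgeR adjusted p = 0.0708). That difference from shVHL61 was called by limma on log2(TPM + 1) (-0.15, adjusted p = 0.0393) and by edgeR with the set as a term (-0.13, 0.0165), and was 0.13 with trends removed. The trend removal used a SOD2 length of 14266 bases, that of its longest transcript. A shorter expressed form would make the SOD2 values with trends removed unreliable.

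Catalase (CAT), which splits hydrogen peroxide in peroxisomes, showed a smaller change with the same order in shKIM1-A1. It was at 32.8, 33.6 and 35.6 CPM in Luc976, 28.1, 28.6 and 26.0 in shKIM1-A1, 33.9, 34.6 and 33.1 in shVHL61, and 38.5, 39.3 and 40.0 in shVHL61-KIM1A1. The shKIM1-A1 samples were lowest and the shVHL61-KIM1A1 samples highest, each apart from the rest, while Luc976 and shVHL61 overlapped. CAT fell by 0.30 in shKIM1-A1 (SE 0.07, edgeR adjusted p = 0.00258) and rose by 0.21 ± 0.07 in shVHL61-KIM1A1 (edgeR adjusted p = 0.0135, but 0.12 and 0.0881 by limma on log2(TPM + 1)), with no call in shVHL61 (0.00, 95% interval -0.14 to 0.13). The cytosolic dismutase SOD1 was at 210 ± 6.48 CPM (SD, n = 3) in Luc976, 197 ± 11.4 in shKIM1-A1, 218 ± 9.37 in shVHL61 and 253 ± 21.7 in shVHL61-KIM1A1, and rose against Luc976 in the last (0.27 ± 0.07, edgeR adjusted p = 0.00307).

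Of 6 tested members of the thioredoxin cycle, 5 were lower and 0 higher in shKIM1-A1 than in Luc976, where 16.6% of all tested genes were lower and 14.8% higher, with falls of 0.28 in TXN, 0.18 in TXNRD1, 0.22 in SRXN1, 0.23 in PRDX1 and 0.14 in PRDX6 on the log2 scale. TXNRD1 is the reductase that recharges thioredoxin with NADPH, SRXN1 repairs overoxidised peroxiredoxins, and PRDX1 and PRDX6 reduce peroxides. TXNRD1 missed the threshold without Luc976 replicate 1 (-0.17, edgeR adjusted p = 0.0591) or 2 (-0.14, 0.0917), and PRDX6 without any of 5 of the 6 libraries (adjusted p from 0.0584 to 0.179). By limma on log2(TPM + 1) TXN and PRDX1 kept the call, and TXNRD1 (-0.08, adjusted p = 0.402), SRXN1 (-0.12, 0.105) and PRDX6 (-0.04, 0.506) did not. The median of all genes in this comparison was 0.087 on that scale, beside 0.006 in the main test. TXNRD1, whose upstream ARE core is printed above, was the member of this group that rose in shVHL61, from 352 ± 12.9 CPM (SD, n = 3) in Luc976 to 463 ± 21.2 (log2 0.39 ± 0.05, edgeR adjusted p = 8.24e-05). In shVHL61-KIM1A1 it stood at 395 ± 12.3 CPM, above Luc976 (0.17 ± 0.05, edgeR adjusted p = 0.0143, but 0.14 and 0.068 without Luc976 replicate 3) and below shVHL61 (-0.23 ± 0.05, edgeR adjusted p = 0.00237). By limma on log2(TPM + 1) the TXNRD1 rise over Luc976 in that line was not called (0.09, adjusted p = 0.279), where the median of all genes was -0.062. TXN was at 306 ± 15.2, 341 ± 16.2, 252 ± 10.1 and 351 ± 19.2 CPM in Luc976, shVHL61, shKIM1-A1 and shVHL61-KIM1A1. Its rise of 0.20 ± 0.06 in the last (edgeR adjusted p = 0.00993) became a fall of 0.10 once trends with transcript length and GC content were removed, and was not called without shVHL61-KIM1A1 replicate 3 (0.16, 0.0552). SRXN1 also fell in shVHL61-KIM1A1 (-0.23 ± 0.05, edgeR adjusted p = 0.00227), and PRDX2 passed no test.

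Of the 4 tested members of glutathione synthesis and recycling, 0 were higher in any line than in Luc976, and GCLM alone was lower, in shKIM1-A1 and with the pair. Of all tested genes, 7.21% were higher and 9.44% lower in shVHL61, 14.8% and 16.6% in shKIM1-A1, and 25.2% and 26.3% with the pair. With 4 genes these counts are not set apart from such shares. GCLM, the modifier subunit of the enzyme that starts glutathione synthesis, was at 57.5 ± 3.05 CPM (SD, n = 3) in Luc976, 50.8 ± 2.37 in shKIM1-A1, 64.0 ± 2.74 in shVHL61 and 47.0 ± 2.27 in shVHL61-KIM1A1. It fell in shVHL61-KIM1A1 by 0.29 against Luc976 (SE 0.07, edgeR adjusted p = 0.00166) and by 0.45 against shVHL61 (SE 0.07, edgeR adjusted p = 6.58e-05). Its fall of 0.18 in shKIM1-A1 (edgeR adjusted p = 0.0479) was lost without any 1 of the 6 libraries compared (adjusted p from 0.0633 to 0.214). The catalytic subunit GCLC and the synthase GSS passed no test, and the reductase GSR fell between shVHL61 and shVHL61-KIM1A1 (-0.18 ± 0.05, edgeR adjusted p = 0.00857). The peroxidases GPX1 and GPX4 passed none, and their changes against Luc976 had standard errors of 0.09 to 0.10, against 0.05 for GSR.

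Of the glutathione transferases, GSTM3 rose with the KIM-1 hairpin. It was at 50.9, 54.2 and 57.0 CPM in Luc976, 61.2, 64.6 and 66.1 in shKIM1-A1, 51.3, 56.4 and 54.9 in shVHL61, and 74.1, 83.0 and 84.5 in shVHL61-KIM1A1. Luc976 and shVHL61 overlapped, the shKIM1-A1 samples lay above them, and the shVHL61-KIM1A1 samples lay above those. The log2 change against Luc976 was 0.00 ± 0.07 in shVHL61, 0.24 ± 0.07 in shKIM1-A1 (edgeR adjusted p = 0.0129, but 0.21 and 0.0601 without Luc976 replicate 1) and 0.58 ± 0.07 in shVHL61-KIM1A1 (edgeR adjusted p = 4.25e-06). GSTP1, whose ARE core has the same 9 capital letters as that of ME1, and the membrane-bound MGST1 passed no test. GSTP1 in shVHL61-KIM1A1 against shKIM1-A1 was at 0.26 (edgeR adjusted p = 0.0533) and was called by DESeq2 (0.26, 0.0414) and in 7 other alternatives. The MGST1 interaction of 0.23 (edgeR adjusted p = 0.158) was called with the library set as a term (0.33, edgeR adjusted p = 0.00109). It was 0.40 within set A and 0.25 within set B, where some groups have 1 library. Reads of GSTM3 and its relatives GSTM1, GSTM2 and GSTM4 may be split differently by other counting.

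The NADPH-supplying members split in direction. ME1, the cytosolic malic enzyme, was at 43.1, 48.1 and 41.2 CPM in Luc976, 63.7, 54.4 and 65.8 in shKIM1-A1, 59.4, 69.7 and 63.9 in shVHL61, and 76.4, 67.7 and 69.3 in shVHL61-KIM1A1. Every sample with a VHL or KIM-1 hairpin lay above every Luc976 sample, and these 3 groups partly overlapped. ME1 rose by 0.54 ± 0.09 in shVHL61 (edgeR adjusted p = 0.000431), 0.47 ± 0.09 in shKIM1-A1 (edgeR adjusted p = 0.000676) and 0.69 ± 0.09 in shVHL61-KIM1A1 (edgeR adjusted p = 7.64e-06). The interaction of -0.33 missed the threshold (95% interval -0.58 to -0.07, edgeR adjusted p = 0.0691). It passed by limma on log2(TPM + 1) (-0.47, adjusted p = 0.0391), where the median interaction of all genes was -0.13. By edgeR it passed with the library set as a term (-0.20, adjusted p = 0.0312) and with trends removed (-0.26, 0.00299). It also passed without Luc976 replicate 2, shVHL61 replicate 1, shKIM1-A1 replicate 2 or shVHL61-KIM1A1 replicate 1 (edgeR adjusted p from 0.0134 to 0.0454). PGD and TKT of the pentose phosphate pathway went the other way in shKIM1-A1, with falls of 0.33 (SE 0.06, edgeR adjusted p = 0.000531) and 0.37 (SE 0.08, edgeR adjusted p = 0.00241). In shVHL61-KIM1A1 PGD fell by 0.20 and TKT by 0.24 against Luc976, and TKT was then not called without Luc976 replicate 1 (-0.20, edgeR adjusted p = 0.0832), Luc976 replicate 3 (-0.18, 0.107) or shVHL61-KIM1A1 replicate 1 (-0.18, 0.0986). With trends in length and GC content removed, TKT in that comparison was at 0.05. The length used there was 7286 bases, that of its longest transcript. A shorter expressed form would make this value unreliable. TALDO1, the transaldolase of this pathway, passed against shKIM1-A1 alone, where it was 0.28 ± 0.07 higher in shVHL61-KIM1A1 (edgeR adjusted p = 0.00579). By limma on log2(TPM + 1) this was not called (0.10, adjusted p = 0.154), where the median of all genes was -0.151. PGD and ME1, which moved oppositely in shKIM1-A1, are among the 6 members with an ARE core printed above.

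AKR1B1 rose in each line and most where the pair of hairpins was present. Its level was 1408, 1370 and 1484 CPM in Luc976, 1678, 1844 and 1688 in shKIM1-A1, 1834, 1804 and 1785 in shVHL61, and 2047, 2227 and 2224 in shVHL61-KIM1A1. The Luc976 samples were lowest and the shVHL61-KIM1A1 samples highest without overlap, and the single hairpins overlapped each other. The log2 rises were 0.35 ± 0.05 with shVHL61 (edgeR adjusted p = 0.000246), 0.29 ± 0.05 with shKIM1-A1 (edgeR adjusted p = 0.000579) and 0.61 ± 0.05 with the pair (edgeR adjusted p = 1.21e-07). The interaction was -0.03 (95% interval -0.19 to 0.13, edgeR adjusted p = 0.83). It was called as negative by limma on log2(TPM + 1) (-0.19, adjusted p = 0.0226), where the median of all genes was -0.13. With trends removed it was also called as negative (-0.16, edgeR adjusted p = 0.00447). AKR1C3, an aldo-keto reductase of steroid and prostaglandin metabolism, was low, at 14.5, 16.5 and 16.7 CPM in Luc976, 12.6, 13.5 and 12.1 in shKIM1-A1, 14.2, 14.2 and 14.5 in shVHL61, and 15, 17.7 and 17.0 in shVHL61-KIM1A1. The shKIM1-A1 samples lay below all others, and the Luc976 and shVHL61-KIM1A1 samples overlapped. The fall of 0.31 in shKIM1-A1 (SE 0.09, edgeR adjusted p = 0.0142) was not called without Luc976 replicate 2 (-0.27, 0.0588), Luc976 replicate 3 (-0.28, 0.0611), shKIM1-A1 replicate 1 (-0.30, 0.0509) or shKIM1-A1 replicate 3 (-0.27, 0.0667).

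Adding the KIM-1 hairpin to cells with shVHL61 left 4 members higher and 8 lower, where 21.2% of all tested genes were higher and 21.3% lower. The higher members were AKR1B1, GSTM3, SOD1 and CAT, and the lower ones NFE2L2, KEAP1, GCLM, GSR, TXNRD1, SRXN1, PGD and NQO1. The largest of these was GSTM3, with 0.57 ± 0.07 (edgeR adjusted p = 7.82e-06). Calls for PGD were lost without shVHL61 replicate 1 (-0.14, edgeR adjusted p = 0.0915) or shVHL61-KIM1A1 replicate 1 (-0.15, 0.0693), for CAT without shVHL61 replicate 3 (0.20, 0.0584), and for SOD1 without shVHL61 replicate 1 or shVHL61-KIM1A1 replicate 2 or 3 (0.18 each, from 0.0629 to 0.0727).

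Adding the VHL hairpin to cells with shKIM1-A1 gave 13 higher members and 1 lower, where 21.1% of all tested genes were higher and 20.9% lower. The members' median log2 change was 0.214, beside 0.002 over all tested genes, and the lower gene was KEAP1. The higher members were NFE2L2, TXN, TXNRD1, PRDX1, PRDX6, TALDO1, AKR1B1, AKR1C3, GSTM3, NQO1, SOD1, SOD2 and CAT. TXN was 0.48 ± 0.06 higher (edgeR adjusted p = 8.16e-06), NQO1 0.48 ± 0.06 (edgeR adjusted p = 4.77e-06) and CAT 0.51 ± 0.07 (edgeR adjusted p = 1.35e-05). The split depended on the scale: on TPM the median of all genes moved to -0.151, 20.0% of all called genes in place of 50.1% were higher, and 9 members were called higher and 9 lower. Relative to the all-gene median, 20 members lay above and 9 below on each scale. NFE2L2 (0.21), TXN (0.30), NQO1 (0.29), SOD2 (1.09) and CAT (0.32) kept a call for a rise on log2(TPM + 1).

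The effect of the KIM-1 hairpin depended on the VHL hairpin for 7 members, each with a positive interaction, and for 0 with a negative one, where 10.2% and 9.52% of all tested genes were called. The interaction subtracts the hairpin's log2 effect in cells without shVHL61 from that in cells with it. For SOD2 the hairpin's effect was -1.13 without and -0.13 with shVHL61, an interaction of 1.00 ± 0.08 (edgeR adjusted p = 6.18e-07). For CAT the effects were -0.30 and 0.21, an interaction of 0.52 ± 0.09 (edgeR adjusted p = 0.00105), and for AKR1C3 -0.31 and 0.21, an interaction of 0.52 ± 0.13 (edgeR adjusted p = 0.00876). TXN gave 0.32 ± 0.08 (edgeR adjusted p = 0.0123), GSTM3 0.33 ± 0.10 (edgeR adjusted p = 0.0266), SOD1 0.31 ± 0.09 (edgeR adjusted p = 0.0272) and PRDX1 0.22 ± 0.07 (edgeR adjusted p = 0.0379). Leaving out 1 library at a time ended the call of PRDX1 in 9 of 12 cases, of GSTM3 in 7 and of SOD1 in 6, and of SOD2, CAT, TXN and AKR1C3 in 0. The number of members called was 4 without Luc976 replicate 3, shKIM1-A1 replicate 1 or shVHL61-KIM1A1 replicate 2 or 3, 11 without shVHL61-KIM1A1 replicate 1 and 12 without shKIM1-A1 replicate 2. On log2(TPM + 1), where the median of all genes was -0.13, 3 members were called higher (SOD2 0.87, CAT 0.35, AKR1C3 0.34) and 6 lower (KEAP1, GCLM, GSR, ME1, AKR1B1 and HMOX1), and the share of all called genes that were higher moved from 51.8% to 24.5%. HAVCR1 itself was lowered by 1.08 on the log2 scale without and by 0.78 with shVHL61, and the part of this difference in the interaction was not tested.

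**Figure D4:**
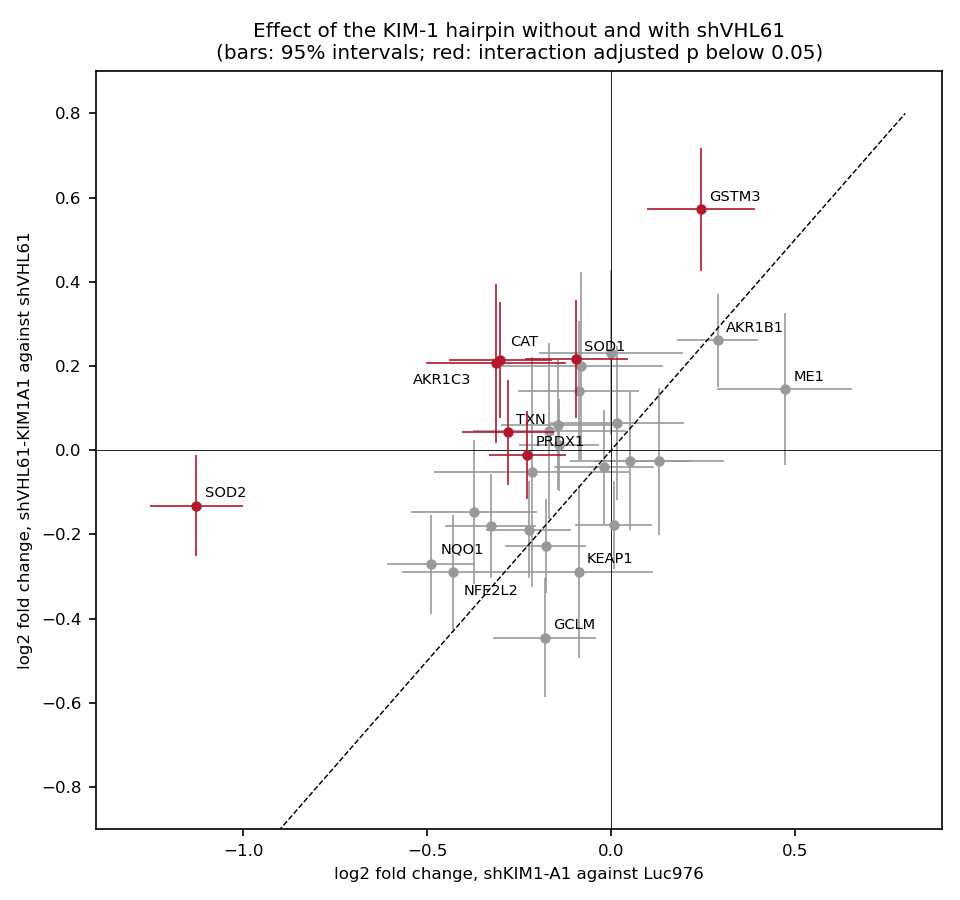
Each point is a tested member, with the log2 fold change of shKIM1-A1 against Luc976 on the horizontal axis and of shVHL61-KIM1A1 against shVHL61 on the vertical axis, bars for 95% intervals and a dashed line of equal effects. SOD2 lies farthest from the dashed line, at -1.13 and -0.13, and the 7 red members with a called interaction all lie above the line.

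Within each hairpin group the libraries differed in the GC content of the transcripts they held. By the sign of the rank correlation between each library's deviation from its group mean and transcript GC content, 6 libraries formed a set A and 6 a set B. Luc976 and shVHL61-KIM1A1 have 2 libraries in set A and 1 in set B, while shVHL61 and shKIM1-A1 have 1 in set A and 2 in set B. Deviations from a group's own mean cancel within the group, so each group tends to fall into both sets. A set therefore need not mark the same condition in different groups, and GC differences between groups are not seen this way. The sets were drawn from these libraries' own values, so a smaller residual spread with the set as a term or within a set follows in part from how they were made. Within a set some groups have 1 library, so only log2 changes are given there. Of the 29 tested members, 23 had the same sign in each set for shVHL61 against Luc976 and 25 for shKIM1-A1 against Luc976. The share over all tested genes was not computed, so these counts are not particular to the members. In shKIM1-A1 against Luc976, SOD2 was at -1.14 in set A and -1.10 in set B, NQO1 at -0.52 and -0.47, and NFE2L2 at -0.38 and -0.53. In shVHL61 against Luc976, NFE2L2 was at 0.26 and 0.19, NQO1 at 0.26 and 0.27, and TXNRD1 at 0.35 and 0.38. KEAP1 in shVHL61-KIM1A1 against Luc976 was at -0.44 and -0.53, and its interaction, not called over all libraries, was -0.43 and -0.28. The interaction of SOD2 was 1.02 and 0.96, and that of CAT 0.47 and 0.50, whereas GSTM3 had 0.44 in set A and 0.18 in set B. SOD1 in shVHL61-KIM1A1 against Luc976 had 0.36 in set A and 0.09 in set B, and its interaction 0.36 and 0.19. TXN in shVHL61-KIM1A1 against Luc976 had 0.29 and 0.04. The interaction of AKR1C3 was 0.47 in each set.

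**Figure D5:**
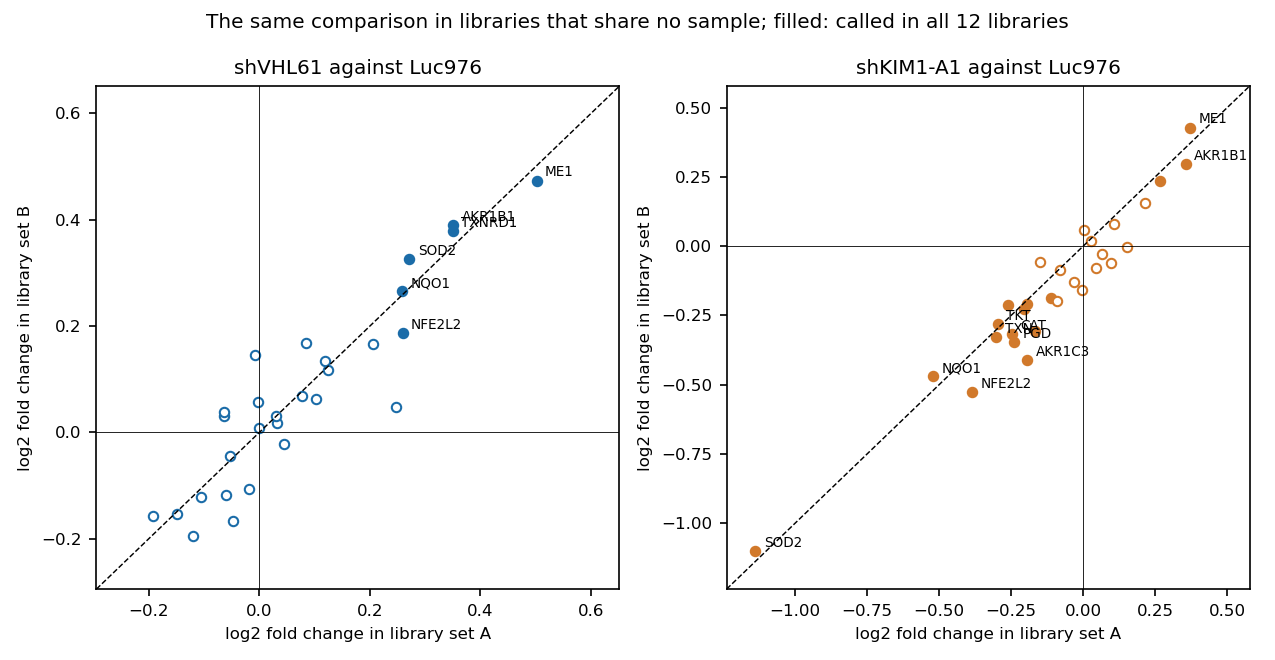
Each point is a tested member, with the log2 fold change against Luc976 within library set A on the horizontal axis and within set B on the vertical axis, for shVHL61 (left) and shKIM1-A1 (right); filled points were called with all 12 libraries and the dashed line marks equality. Of the 29 points, 23 (left) and 25 (right) have the same sign in the 2 sets, with SOD2 at -1.14 and -1.10 for shKIM1-A1. The share over all tested genes was not computed.

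Of 107 further genes of the same pathways, listed by function, 84 were tested. Against Luc976, 10 were higher and 5 lower with shVHL61, 14 and 17 with shKIM1-A1, and 33 and 11 with the pair. These are 11.9% and 5.95%, 16.7% and 20.2%, and 39.3% and 13.1% of the list, beside 7.21% and 9.44%, 14.8% and 16.6%, and 25.2% and 26.3% of all tested genes, with list medians of 0.007, -0.021 and 0.136. Among 14 regulators and partners of NRF2, 1 was higher and 1 lower in shVHL61 (7.14% and 7.14%), 1 and 5 in shKIM1-A1 (7.14% and 35.7%), and 3 and 6 in shVHL61-KIM1A1 (21.4% and 42.9%), to be read against the same all-gene shares. NFE2L3, a relative of NRF2, rose in each line, from 46.9 ± 3.67 CPM (SD, n = 3) in Luc976 to 79.3 ± 4.93 with shVHL61, 79.8 ± 13.0 with shKIM1-A1 and 95.9 ± 3.25 with the pair, with log2 rises of 0.76, 0.77 and 1.03 (edgeR adjusted p = 5.82e-05, 2.45e-05 and 3.16e-07). Of the small MAF genes, whose products pair with NRF2, MAFF fell by 0.67 in shKIM1-A1 (edgeR adjusted p = 9.54e-06) and by 0.47 in shVHL61-KIM1A1 (edgeR adjusted p = 9.93e-05), and MAFG fell by 0.26 and 0.44 in these lines (edgeR adjusted p = 0.00733 and 6.11e-05), and MAFK passed in neither. BACH1, a repressor that competes for the same elements, fell by 0.33 in shKIM1-A1 (edgeR adjusted p = 0.0162) and was at 0.03 in shVHL61 and -0.01 in shVHL61-KIM1A1. SQSTM1, an autophagy adaptor that binds KEAP1, passed no test against Luc976.

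Among 22 tested further NRF2 target genes, 3 were higher and 1 lower in shVHL61 (13.6% and 4.55%), 4 and 5 in shKIM1-A1 (18.2% and 22.7%, near the 14.8% and 16.6% of all genes), and 8 and 2 in shVHL61-KIM1A1 (36.4% and 9.09%, beside 25.2% and 26.3%). The efflux pump ABCC2 was low throughout and went from 2.98 ± 0.425 to 1.22 ± 0.222 CPM (SD, n = 3) in shKIM1-A1 (log2 -1.29, edgeR adjusted p = 0.000107). FTH1, the ferritin heavy chain that stores iron, was at 1047 ± 35.2 CPM in Luc976, 868 ± 71.0 in shKIM1-A1, 1069 ± 4.51 in shVHL61 and 1403 ± 104 in shVHL61-KIM1A1, with an interaction of 0.66 (edgeR adjusted p = 8.05e-05). FTH1 has many processed copies, so its count is uncertain. SLC48A1, a heme transporter, had an interaction of the other sign, -0.69 (edgeR adjusted p = 3.64e-05). The cystine transporter SLC7A11 passed no test against Luc976, at 8.17 ± 0.767, 8.36 ± 0.992, 9.67 ± 0.758 and 7.18 ± 0.582 CPM in Luc976, shVHL61, shKIM1-A1 and shVHL61-KIM1A1, and was lower in shVHL61-KIM1A1 than in shKIM1-A1 (-0.43, edgeR adjusted p = 0.00775).

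The list of other thioredoxin and peroxiredoxin genes (12 tested) also holds SESN1, SESN2, SESN3, CCS and SOD3, so its counts are not those of 1 gene family. In this list 0 were higher and 1, SOD3, lower in shVHL61 (all genes 7.21% and 9.44%). In shKIM1-A1 4 were higher and 1 lower (33.3% and 8.33%, all genes 14.8% and 16.6%). In shVHL61-KIM1A1 5 were higher and 1 lower (41.7% and 8.33%, all genes 25.2% and 26.3%). PRDX4, the peroxiredoxin of the endoplasmic reticulum, was at 148 ± 3.31, 148 ± 7.85, 139 ± 13.0 and 239 ± 11.3 CPM (SD, n = 3) in Luc976, shVHL61, shKIM1-A1 and shVHL61-KIM1A1, and its rise in the last was 0.69 (edgeR adjusted p = 4.63e-07). SOD3, the secreted dismutase, was low and fell from 6.31 ± 0.526 to 2.54 ± 0.309 CPM in shVHL61 (-1.31, edgeR adjusted p = 3.41e-05), in contrast to SOD2. TXNIP, which binds and inhibits thioredoxin, rose by 0.31 in shKIM1-A1 (edgeR adjusted p = 0.000273) and by 0.32 in shVHL61-KIM1A1 (edgeR adjusted p = 7.52e-05), while TXN fell in the former. Of 19 tested glutathione genes beyond the members, 4 were higher and 2 lower in shVHL61 (21.1% and 10.5%), 3 and 1 in shKIM1-A1 (15.8% and 5.26%), and 12 and 1 in shVHL61-KIM1A1 (63.2% and 5.26%), beside the same all-gene shares. In the last the transferase GSTA4 rose by 0.98 (edgeR adjusted p = 4.88e-06). Of 12 further NADPH-supplying genes, 2 and 0 (16.7% and 0%), 2 and 5 (16.7% and 41.7%), and 5 and 1 (41.7% and 8.33%) were higher and lower in the same order. The 3 tested further aldo-keto reductases gave 0 calls against Luc976. The mitochondrial IDH2 rose by 0.44 in shKIM1-A1 (edgeR adjusted p = 0.000142). Of 11 listed sources of reactive oxygen species, 2 were tested, and neither passed against Luc976.

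The authors' deposited table gives its own linear folds against Luc976. For SOD2 the authors' deposited table lists 1.23 for shVHL61, 0.457 for shKIM1-A1 and 1.11 for the pair. For NFE2L2 the authors' deposited table lists 1.21, 0.743 and 0.979 in the same order, and for AKR1B1 1.28, 1.22 and 1.52. In the authors' deposited table KEAP1 stands at 0.891, 0.94 and 0.722.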

How the data were processed

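RNA was sequenced in 12 HK-2 samples, 3 in each of 4 hairpin groups given by the labels. Per the labels, Trizol was used for extraction and a TruSeq kit for the libraries, starting from total RNA. The authors deposited expected counts per gene, estimates that need not be whole (89.7% to 90.7% of values were), TPM and FPKM per sample, per the file headers. The deposited table also holds the authors' linear fold (a ratio) of each group over Luc976. Bowtie 0.12.2 is listed, together with mm8 and mm9 (mouse builds), per the submitters' processing notes, without saying what each was used for. For the human build, annotation, quantifier and strand setting, nothing was given in the sources used here. Reads of overlapping, antisense or near-identical genes may therefore be split differently by other counting.

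Expected counts were rounded, genes kept by filterByExpr (minimum count 10), libraries scaled by TMM (factors 0.976 to 1.05), and 1 quasi-likelihood model of edgeR 4.0.16 (R 4.3.3) fitted to 14230 genes in all 12 samples, with 8 residual degrees of freedom and a biological coefficient of variation of 6.81%. All tests were two-sided, the Benjamini-Hochberg adjustment ran over all genes tested, and a gene was called below 0.05. SE is the size of the log2 change over the square root of F. CPM are per 1e+06 counts on TMM-scaled library sizes. FPKM values and 3 further columns of the table, 1 for each of the authors' comparisons, were not used. Length and GC content were those of the longest GENCODE v29 transcript, with GC known for 94.7% of tested genes. The method was tested on simulated data. Members and lists were chosen with earlier results of these data known. Values in every sample are given for members called with a log2 change of at least 0.5 in size in any comparison and for NFE2L2, KEAP1 and NQO1. Of each further list, up to 3 called genes with the smallest p per list and comparison could be named, plus SLC7A11, BACH1, SQSTM1 and TXNIP; some genes of these lists are not reported here. Alternatives were other scaling, DESeq2 1.42.0, no filter, limma 3.58.1 on log2(TPM + 1) and log2(TPM + 0.1), only the groups compared, a replicate block, the library set, removal of length and GC trends, and each library left out.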

Additional observations from a re-analysis of the deposited data

Results flagged for a closer look

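For 7 members the effect of the KIM-1 hairpin in cells with shVHL61 differed from its effect in cells without, by the edgeR interaction term. The interaction was 1.00 for SOD2, 0.52 for CAT, 0.52 for AKR1C3, 0.33 for GSTM3, 0.32 for TXN, 0.31 for SOD1 and 0.22 for PRDX1 on the log2 scale, each positive. SOD2 and CAT were called under each of the 22 alternatives run for the interaction. Each of these values rests on the same 3 shKIM1-A1 samples, so the 7 are not independent of one another. HAVCR1 stood higher in shVHL61-KIM1A1 than in shKIM1-A1, and its part in these values was not tested.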

How the results depend on the processing

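Of 69 calls for members over the 6 comparisons, 40 held under every alternative run and 51 whenever 1 library was left out. Adding the library set to the model, the members called in shVHL61 against Luc976 went from 6 to 10 and in the interaction from 7 to 16 (11 higher, 5 lower); with length and GC trends removed they were 11 and 13. Leaving out 1 library gave 4 to 12 for the interaction. All-gene calls moved by more than 1.5 times: in shVHL61 against Luc976 from 2370 to 4080 with the set, 4082 with trends removed and 1399, 1344, 1329 and 1350 without Luc976 replicate 1 or 3 or shVHL61 replicate 2 or 3, and in the interaction from 2811 to 4764 and 4400. Removal of the trends reversed TXN (-0.099) and TKT (0.053) in shVHL61-KIM1A1 against Luc976 and gave TXN -0.13, PRDX6 -0.086 and GPX1 -0.17 against shVHL61. For TKT this rests on the length of its longest transcript, which may not be the form expressed. Set B alone gave GSTP1 0.15 in shVHL61 against Luc976. The cause of these reversals was not tested. With the set as a term NFE2L2 (0.21), KEAP1 (-0.35), NQO1 (0.20) and MGST1 (0.33) were among those that passed in the interaction. In shVHL61-KIM1A1 against shVHL61 the TPM scale gave 4 higher and 10 lower members, and the share of all called genes that were higher moved from 49.9% to 40.0%. In shVHL61 against Luc976 that share was 61.7% with trends removed. Same-numbered samples did not deviate together (r from -0.331 to 0.253, and 0 of 12 samples correlated best with their own number). The labels do not say whether the numbers pair samples, and a pairing masked by other differences between libraries would not be seen this way. With a replicate block the member calls were 6, 15, 13, 12, 14 and 7, against 6, 16, 14, 12, 14 and 7 without. Depth limits GPX2, AKR1B10, AKR1C1 and AKR1C2, which were not testable at these counts.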
